A study of Mus musculus with 58 samples.

Results

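The genes described here are 10 listed chaperone genes of the cytosol and the mitochondrion and their main transcription factor: Hsp90aa1, Hsp90ab1, Hspa8, Hsph1, Dnajb1, Dnaja1, Hspd1, Hspe1, Hspb1 and Hsf1. They were listed by name and not by a cut on a measured value, but with earlier results of these data known. A gene was read from the array's transcript cluster that carried its symbol alone, or from the brightest such cluster where it had several, and 7 of the 10 were measured in this way among 22180 genes. Dnaja1 lies only on a cluster shared with another symbol and has no value, and Hsp90ab1 and Hsf1 were not analysed here.

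RNA of 29 normal livers and 29 liver tumors was measured on 58 whole-transcript arrays of the Mouse Gene 2.0 ST type. The tissue came from adult mice on a background mixed from FVB/NJ, C57BL/6 and 129/Sv, and every animal, those that gave normal liver included, had been treated after birth with adeno-associated virus (AAV), a gene transfer vector that can insert into the genome. The study asks whether such insertions contributed to hepatocellular carcinoma. As the titles were read here the arrays came from 39 animals. Both tissues were taken from 18 of them, and 1 gave 2 tumors. Normal livers 26 and 27 share an animal number but differ in their +/- and -/- marks and were taken as separate animals, and the title of normal liver 28 resembles those of the animal with 2 tumors. Of the normal livers 20 are labelled male and 9 female, and of the tumors 17 are labelled male, 11 female and 1 is not labelled. Some titles carry the marks +/- or -/-, for which the labels name no gene, and the title of normal liver 4 also carries the letters GFP, with no explanation. The labels state no vector dose. Normal liver here is thus liver of treated animals, in 18 cases of an animal that also gave a tumor array, and no untreated group was analysed here.

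Heat shock proteins are chaperones that bind unfolded proteins and help them to fold, to move between compartments or to be broken down. HSP90 and HSP70 work as ATP-driven machines with helper proteins, HSP60 with its HSP10 lid folds proteins inside mitochondria, and the small heat shock proteins hold unfolded proteins without using ATP. Under heat or other protein stress the transcription factor HSF1 binds repeats of the short sequence nGAAn at the promoters of these genes and raises their transcription.

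Promoter sequence is printed for Hspd1, Hspe1, Hspb1 and Hsph1 to show where such repeats lie next to members that were higher together in tumors. RefSeq windows of 300 bases, from 250 bases before to 50 after a listed start (assembly GRCm38.p6), were given for 6 of the 10 genes, of which 5 were measured. Hsp90aa1 and Hspa8 are measured members without a window. Hspd1 and Hspe1 lie head to head on chromosome 1, and the first sequence is all 215 bases between one of the 2 listed Hspd1 starts and the Hspe1 start. The other listed Hspd1 start, at 55088243, lies on the far side of the Hspe1 start, so that the printed bases fall inside that transcript model. Capitals mark every match to GAANNTTC or TTCNNGAA, adjacent or overlapping matches run together, and each coordinate range is followed by its strand.
Hspd1-Hspe1, between the starts, chr1:55087933-55088147 (+): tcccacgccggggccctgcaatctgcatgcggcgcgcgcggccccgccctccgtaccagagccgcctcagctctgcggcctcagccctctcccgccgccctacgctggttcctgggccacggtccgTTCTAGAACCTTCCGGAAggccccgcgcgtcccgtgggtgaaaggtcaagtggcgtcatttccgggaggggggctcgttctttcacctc
Hspb1, upstream, chr5:135887789-135887838 (+): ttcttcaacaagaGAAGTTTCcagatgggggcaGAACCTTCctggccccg
Hsph1, upstream, chr5:149636347-149636396 (-): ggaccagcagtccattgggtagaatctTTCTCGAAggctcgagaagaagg
Hsph1, transcribed side, chr5:149636287-149636308 (-): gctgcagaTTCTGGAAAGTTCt

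The Hspe1 window and that of the Hspd1 start used for the printed sequence share 285 bases. Their matches are thus the same bases and not separate evidence. The window of the other listed Hspd1 start, at 55088243, held no match. In the shared stretch TTCNNGAA occurred at 2 places and GAANNTTC at 1, joined into a run of 4 units that holds the longer form, TTCNNGAA followed directly by NNTTC, on both strands (its reverse reads GAANNTTC followed by NNGAA). The Hspb1 window held GAANNTTC at 2 places and no TTCNNGAA. The Hsph1 window held TTCNNGAA 33 bases before its first listed start, and a second TTCNNGAA that overlaps a GAANNTTC just after that start and forms the longer motif. The 2 listed Dnajb1 windows, on chromosome 8, held none of the 3 motifs. Of 32851 RefSeq windows of the same length, 7.86% held GAANNTTC, 8.52% held TTCNNGAA and 0.603% held the longer form on either strand. These are matches of letters. Binding was not measured.

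Some arrays stood apart or went against their labels. Tumor 9 had a mean log2 value of 7.86 over 6 hepatocyte markers (Alb, Ttr, Apoa2, Serpina1c, Tat, Tdo2), against 11.8 to 13.1 in the 27 tumors other than 9 and 20 and 11.9 to 13.04 in normal livers, and its mean over 3 B and plasma cell markers was 11.9 and over 5 T and NK cell markers 9.93, above all other arrays. Tumor 20 had hepatocyte markers at 12.8 and neutrophil markers at 10.73, against at most 8.06 in those 27 tumors, and just above the highest normal liver, at 10.66. The same 2 arrays had the lowest mean correlation with all other arrays, 0.873 and 0.911. Sex-linked genes of 7 arrays (normal livers and tumors 3, 14 and 15, and tumor 28) went against the gender label. The part of these differences in the results was not tested, and results are given with and without tumors 9 and 20, a choice made after the values had been seen.

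All 7 measured genes were higher in tumors than in normal liver. In the limma fit with the animal as a random block, 7 of 7 passed an adjusted p of 0.05 as higher in tumors, against 17.9% of all genes called higher and 14.3% called lower. With arrays centred on their medians 7 of 7 were called as well, and the split over all genes was 21.1% higher and 7.79% lower. The rises were modest, from 1.18-fold for Hspa8 to 1.70-fold for Hsph1, with a median log2 change of 0.42 against -0.02 over all genes. The tissues overlapped for every gene. Again 7 of 7 were called when tumors 9 and 20 were left out, with log2 changes from 0.27 to 0.92 and with 21.5% of all genes called higher and 21% lower. In whole tissue, a change in RNA per cell and a change in the cell types present cannot be told apart.

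**Figure D1:**
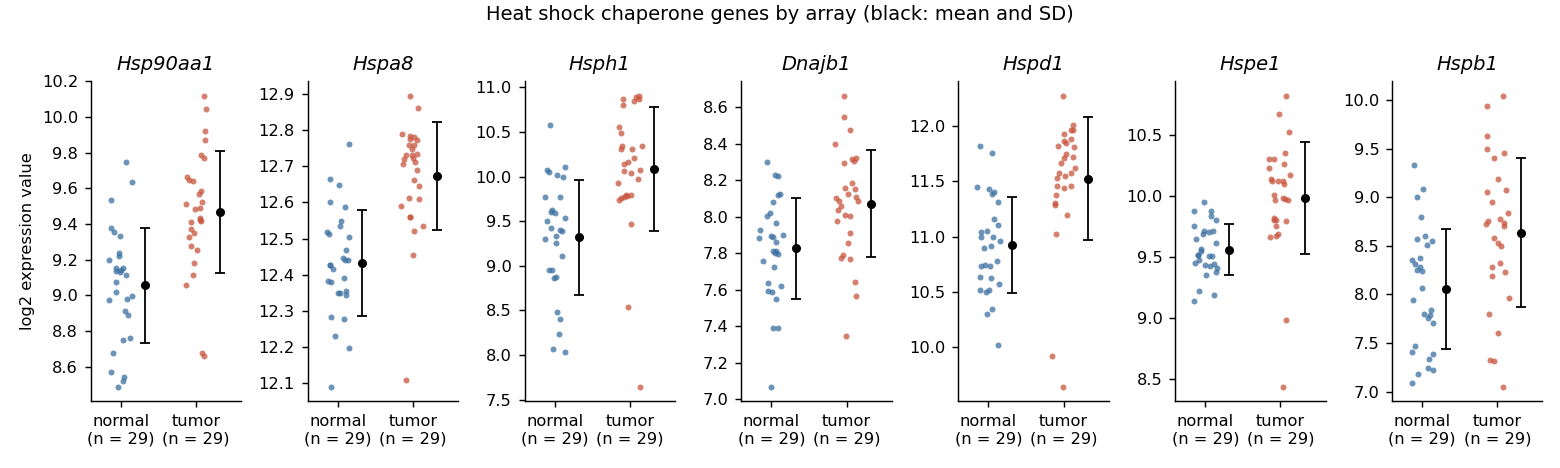
Log2 expression value of each measured gene (vertical axes, separate for each gene) in 29 normal livers (blue) and 29 tumors (red), with one point per array and the mean and SD in black. The tumor cloud sits higher in all 7 panels, and the lowest tumor is tumor 9 for Hspd1 and Hspe1 and tumor 20 for the other 5 genes.

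The HSP90 and HSP70 machines of the cytosol were represented by 4 genes. Hsp90aa1 (transcript cluster 17284002) encodes the heat-inducible HSP90 of the cytosol. Its log2 value ran from 8.49 to 9.75 in normal livers (median 9.11) and from 8.66 to 10.12 in tumors (median 9.49). Tumors 15, 5, 26, 18, 10 and 12 were above every normal liver, tumors 20 and 9 were the lowest tumors, and 26 of 29 tumors were above the normal median. It rose 1.33-fold, with means of 9.06 ± 0.32 and 9.47 ± 0.34 (SD, n = 29 each; log2 change 0.41, SE 0.083, limma adjusted p = 9.89e-05).

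Hspa8 (cluster 17516365), the constitutive HSP70 of the cytosol, changed least and varied least. Normal livers ran from 12.09 to 12.76 (median 12.43) and tumors from 12.11 to 12.90 (median 12.72). In 7 tumors it was above the highest normal liver and in 28 of 29 above the normal median, so the shift was small but shared by nearly every tumor. It rose 1.18-fold, from 12.43 ± 0.15 to 12.67 ± 0.15 (SD, n = 29 each; log2 change 0.24, SE 0.044, limma adjusted p = 2.18e-05). Hspa8 has 3 more single-symbol clusters, all called higher in a fit of every cluster on its own, with log2 changes from 0.20 to 0.47. Their r with the cluster used ran from 0.34 to 0.56 in normal liver and from 0.22 to 0.30 in tumors. Such clusters may match gene copies, since Hspa8 has many processed pseudogenes.

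Hsph1 (cluster 17455507), an HSP110 protein that recharges HSP70 with ATP by exchanging its nucleotide, had the largest change. It ran from 8.03 in normal liver 5 to 10.58 in normal liver 15 (median 9.41), and from 7.64 in tumor 20 to 10.91 in tumor 15 (median 10.15). In 6 tumors it exceeded every normal liver, in 27 of 29 the normal median, and tumor 20 was below every normal liver. The mean rose 1.70-fold, from 9.32 ± 0.65 to 10.08 ± 0.70 (SD, n = 29 each; log2 change 0.76, SE 0.16, limma adjusted p = 1.49e-04).

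Dnajb1 (cluster 17502954), a J-domain protein that delivers substrates to HSP70 and starts its ATP cycle, rose 1.19-fold. Normal livers ran from 7.07 to 8.30 (median 7.86) and tumors from 7.35 to 8.66 (median 8.08). Only 22 of 29 tumors were above the normal median, the fewest of the 7 genes, and 7 were above the highest normal liver. The mean went from 7.83 ± 0.28 to 8.07 ± 0.29 (SD, n = 29 each; log2 change 0.25, SE 0.072, limma adjusted p = 0.00576). In the unpaired arrays alone, 11 of each tissue, the change was 0.20 and did not pass (limma adjusted p = 0.202, with the block correlation of all arrays).

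Both genes of the mitochondrial chaperonin rose. Hspd1 (cluster 17223228), which encodes HSP60, ran from 10.02 to 11.82 in normal livers (median 10.92) and from 9.64 to 12.28 in tumors (median 11.62). In 8 tumors it was above every normal liver, and tumors 9 and 20 were below every normal liver. It rose 1.52-fold, from 10.92 ± 0.43 to 11.52 ± 0.56 (SD, n = 29 each; log2 change 0.60, SE 0.126, limma adjusted p = 1.44e-04).

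Hspe1 (cluster 17212882), which encodes the HSP10 lid, had the most tumors outside the range of normal liver. Normal livers stayed between 9.14 and 9.95 (median 9.52), while tumors ran from 8.43 to 10.82 (median 10.01). In 19 of 29 tumors it was above the highest normal liver, and tumors 9 and 20 were below the lowest. The mean rose 1.34-fold, from 9.56 ± 0.21 to 9.99 ± 0.46 (SD, n = 29 each; log2 change 0.42, SE 0.089, limma adjusted p = 1.50e-04).

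Hspb1 (cluster 17443342), the small heat shock protein HSP25 of the mouse, varied most in tumors. Normal livers ran from 7.09 to 9.33 (median 8.06) and tumors from 7.05 to 10.05 (median 8.72). In 6 tumors it was above every normal liver, and 23 of 29 were above the normal median. It rose 1.5-fold, from 8.05 ± 0.62 to 8.64 ± 0.76 (SD, n = 29 each; log2 change 0.59, SE 0.171, limma adjusted p = 0.00605). In the unpaired arrays alone the change was 0.39 and did not pass (limma adjusted p = 0.364). A second, dimmer Hspb1 cluster did not pass (adjusted p = 0.671, log2 change -0.04), and its values had r = 0.03 with the cluster used in normal liver and 0.10 in tumors, so the rise rests on the brighter cluster.

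The same-title pairs compare tumor and liver of 1 animal. Of 7 genes 6 passed an adjusted p of 0.05 as higher in the 18 tumors, against 12.6% of all genes called higher and 8.13% lower. The gene that did not pass was Dnajb1 (mean log2 difference 0.27, SE 0.101, adjusted p = 0.0641, higher in 13 of 18 pairs). Hspa8 was higher in 17 of 18 pairs (mean difference 0.24, SE 0.078, adjusted p = 0.0348), and Hsph1 in 16 (0.80, SE 0.179, adjusted p = 0.00305). Hspe1 was also higher in 16 pairs (0.43, SE 0.122, adjusted p = 0.0153), Hsp90aa1 in 15 (0.38, SE 0.117, adjusted p = 0.0270) and Hspd1 in 14 (0.60, SE 0.205, adjusted p = 0.0439). Hspb1 was higher in 11 of 18 (0.69, SE 0.245, adjusted p = 0.0495), the fewest pairs of all, with differences from -0.96 to 2.84.

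The direction was shared by most of the genes in most animals. All 7 were higher in the tumor in 9 of 18 pairs and 6 of 7 in 5 more. Of all genes, 43.2% to 55.6% were higher in the tumor, depending on the pair. The differences of the 7 genes went together across animals, as given below, so they are not 7 separate agreements. The pairs of tumors 15 and 16 had 5 and 3 genes higher, that of tumor 9 had 1 (Hspa8), and that of tumor 20 had 0. The pair of tumor 5 had the largest mean difference, 1.80 on the log2 scale, with Hsph1 at 8.03 in its normal liver and 10.87 in its tumor and Hspb1 at 7.09 and 9.93. Its normal liver was the lowest of 29 in Hsph1, Dnajb1, Hspd1 and Hspb1, and its tumor was the highest of 29 in Hspa8 and Hspd1, so both sides of that pair were extreme. The pair of tumor 11 came next, at 1.28, and that of tumor 9 was the lowest, at -0.71.

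**Figure D2:**
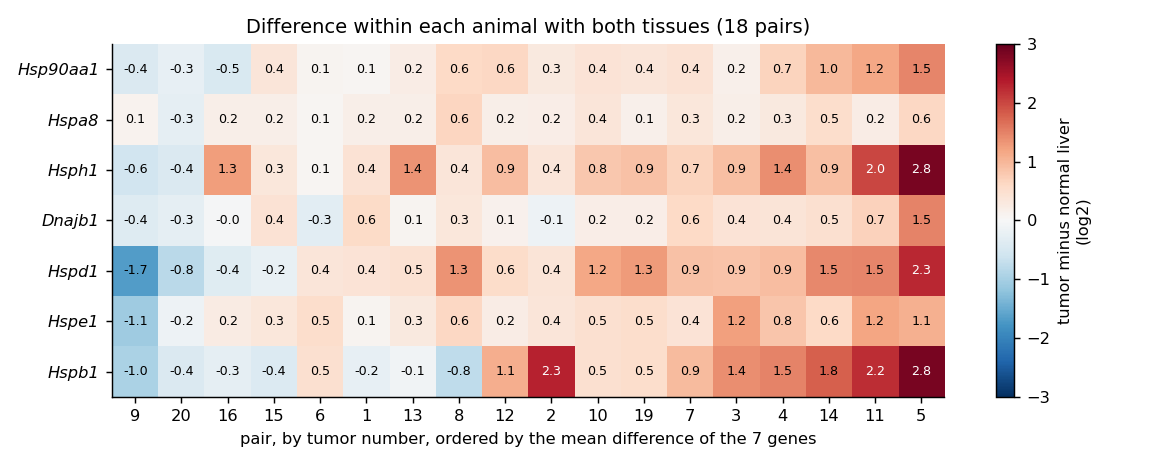
Tumor minus normal log2 difference of the 7 genes (rows) in the 18 animals with both tissues (columns, named by tumor number and ordered by the mean of the 7 differences), red where the tumor was higher and blue where it was lower. Of the 18 columns 9 are red throughout, and those of tumors 9 and 20 are blue but for Hspa8 in tumor 9.

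Several paired calls lay close to the threshold. With each pair left out in turn, 2 to 7 of the genes were called. Hsph1 and Hspe1 passed in all 18 fits, Hsp90aa1 in 16, Hspa8 in 9, Hspb1 in 6, and Hspd1 and Dnajb1 in 4. The count fell to 2 without the pair of tumor 11 or 14 and to 3 without that of tumor 2, 4, 5, 7, 10 or 13, and it was 7 without that of tumor 9, 16 or 20. Without tumors 9 and 20 the pairs gave 7 calls, Dnajb1 among them (mean difference 0.34, limma adjusted p = 0.0120), with 18.9% of all genes called higher. Without the arrays that went against the gender label (15 pairs) they gave 1, Hsph1, with 9.09% of all genes called higher.

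The spread between arrays was then compared between the tissues. By limma on absolute deviations from the tissue median, 0 of 7 genes had a called difference in spread, against 1.04% of all genes called wider and 0.0721% narrower in tumors. At an unadjusted p under 0.05, 1 of 7 was wider, against 7.89% of all genes wider and 1.59% narrower. That gene was Hspe1, with a mean absolute deviation of 0.167 in normal liver and 0.308 in tumors (difference 0.14, SE 0.066, p = 0.0362, adjusted p = 0.464, limma over 58 arrays).

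The 7 genes also varied together within each tissue. In 29 normal livers 20 of the 21 gene pairs had a positive Pearson r, with a median of 0.49, and in 28 tumor animals all 21 were positive, with a median of 0.60. Over all pairs of genes on the array the median was 0.00 in both. Correlations across arrays also reflect what arrays share, such as RNA quality and the authors' scaling, and no label gives a hybridization batch. The call used a limma fit of every other gene on 1 member, adjusted over 22179 genes, which was made from each member to the other 6, so that 42 ordered pairs were tested in each tissue. In normal liver 9 of 42 were called, 4 without normal liver 15 and 5 without normal liver 5, with 0% to 18.1% of all genes called per member. With arrays centred on their medians 23 were called, with 0.00902% to 32.8% of all genes per member. Quantile normalization gave 4, with 0% to 15.6% of all genes per member.

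Of the normal liver calls, Hspd1 made 4 of 6, but 18.1% of all genes were called with it, since many genes varied with Hspd1. Hsp90aa1 made 3 of 6 against 3.41% of all genes, Dnajb1 made 1 against 0.658% and Hsph1 made 1 against 0.0271%. Hspa8, Hspe1 and Hspb1 made 0 of 6 each, with 0% of all genes called. At an unadjusted p under 0.05 they made 4, 4 and 3 of 6, against 10.8%, 5.27% and 6.94% of all genes. The pair that stood out was Hsph1 and Dnajb1, which encode partners of HSP70, with r = 0.77 and rho = 0.78 (permutation p = 1e-05 for each, the smallest these 100000 permutations can give). It was called in both directions (adjusted p = 0.0169 and 0.00662) and kept r = 0.71 without the 2 livers farthest from the Hsph1 median. Hsp90aa1 and Hspd1 were the other pair called both ways (r = 0.73, permutation p = 1e-05; rho = 0.73, permutation p = 3e-05; r = 0.67 without the 2 farthest livers; adjusted p = 0.0122 and 1.39e-04). Hspa8 and Hspb1 had the lowest r of the 21, at -0.04 (rho -0.08, permutation p = 0.837 and 0.668).

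**Figure D3:**
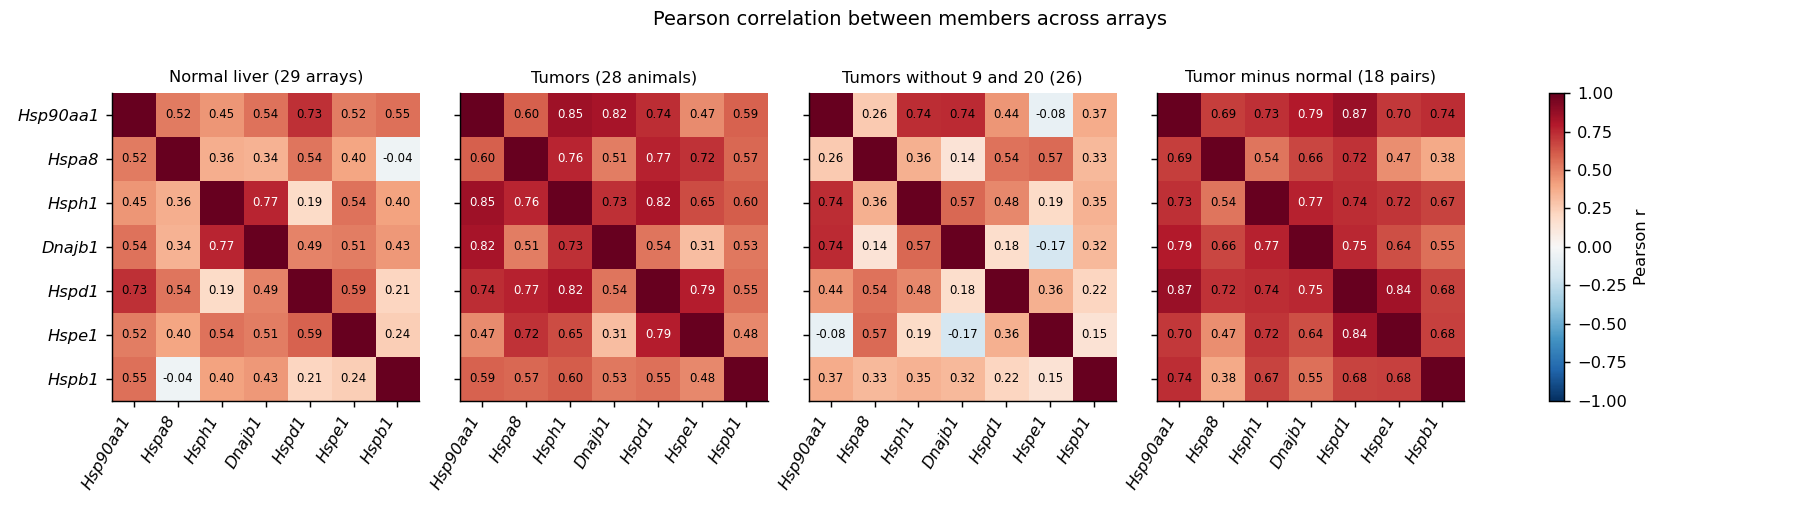
Pearson r between the 7 genes, printed in each cell, across 29 normal livers, 28 tumor animals, the same without tumors 9 and 20 (26), and 18 tumor minus normal differences. Most cells of all tumors and of the differences are deeper red than those of normal liver and of the 26 tumors, and the 26 tumors hold 2 negative pairs, both with Hspe1.

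In tumors 30 of the 42 ordered pairs were called. Hspa8 made 6 of 6 against 9.81% of all genes, Hsph1 made 6 against 13.1%, Hspd1 made 6 against 16.3% and Hsp90aa1 made 5 against 9.73%. Dnajb1 made 4 against 5.33%, Hspe1 made 3 against 4.59% and Hspb1 made 0 against 0.00451%. At an unadjusted p under 0.05 Hspb1 made 6 of 6, against 21% of all genes. These calls rested on 2 tumors. Without tumor 20 alone 12 were called, without tumor 9 alone 23, and without both 0 of 42, with 0% to 7.53% of all genes called per member. At an unadjusted p under 0.05 by the same limma fit there were 15, with no share of all genes computed at that cutoff. The median r of the 21 gene pairs was then 0.35 (range -0.17 to 0.74), and 19 were positive. With all tumors and centred arrays 38 of 42 were called, with 2.1% to 30.4% of all genes per member. Quantile normalization of all tumors gave 27, with 0.00451% to 17.4%.

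The 3 pairs with the highest r without those tumors were of the cytosolic machine, the third by a narrow margin. Hsph1 and Dnajb1 had r = 0.574 there, and Hspa8 with the mitochondrial Hspe1 had 0.567. By rho that order was reversed, with 0.549 and 0.667. Hsp90aa1 and Hsph1 had r = 0.85 and rho = 0.82 in 28 tumor animals (permutation p = 1e-05 for both), and r = 0.74 and rho = 0.77 without tumors 9 and 20. Hsp90aa1 and Dnajb1 had r = 0.82 and rho = 0.77 (permutation p = 1e-05 for both), and 0.74 and 0.72 without them. Hsph1 and Dnajb1 had r = 0.73 (permutation p = 2e-05) and rho = 0.63 (permutation p = 0.00055), and 0.57 and 0.55 without them. The chaperonin pair Hspd1 and Hspe1, which share the promoter stretch printed above, had r = 0.79 (permutation p = 1e-04) and rho = 0.51 (permutation p = 0.0062) in tumors, but 0.36 and 0.39 without the same 2 tumors. In normal liver that pair had r = 0.59 (permutation p = 7e-04) and rho = 0.59 (permutation p = 0.00099), and 0.48 without the 2 livers farthest from the Hspd1 median. Without tumors 9 and 20, Hspe1 had r = -0.08 with Hsp90aa1 and -0.17 with Dnajb1, and 0.57 with Hspa8.

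**Figure D4:**
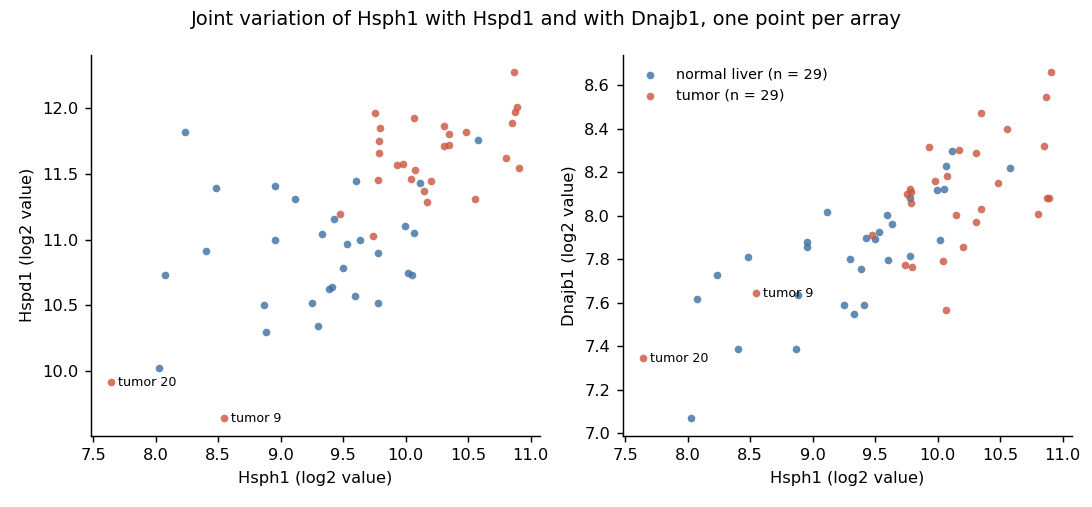
Hspd1 (left) and Dnajb1 (right) against Hsph1, as log2 values, one point per array, for 29 normal livers (blue) and 29 tumors (red). Dnajb1 follows Hsph1 in both tissues, while in the left panel the tumor points run down to tumors 9 and 20, which are labelled.

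The slopes themselves were compared between tissues with an interaction term. Of 42 ordered pairs 1 was called, Hspd1 on Hsph1, against 3.9% of all genes whose slope on Hsph1 differed. Hspd1 changed by 0.13 per unit of Hsph1 in normal liver (SE 0.122) and by 0.66 in tumors (SE 0.093), and the fitted difference was 0.51 (limma adjusted p = 0.0470; 0.116 with centred arrays and 0.0566 among brighter genes). Slopes on Hspd1 differed for 6.69% of all genes and on Hspa8 for 0.018%, and on Hsp90aa1, Dnajb1, Hspe1 and Hspb1 for 0%, and no member was called there. At an unadjusted p under 0.05 there were 8 of 42. The share of all genes at that cutoff was not computed for the slopes. Without tumor 9 the difference was 0.38 (adjusted p = 0.0876), and without tumors 9 and 20 it was 0.17 (adjusted p = 0.773), with 0 of 42 called and 9 at an unadjusted p under 0.05.

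The size of the tumor minus normal difference also went together across the 18 pairs. All 21 gene pairs were positive (median r 0.70, range 0.38 to 0.87), and 28 of 42 ordered pairs were called. With quantile normalization 16 were called, with 0% to 22% of all genes per member. With arrays centred on their medians 41 were called, with 6.65% to 37.1%, and with the gender label as a covariate 19, with 0% to 17.5%. As deposited, Hspd1 made 6 of 6 against 19.3% of all genes, Hsp90aa1 made 5 against 11.4% and Hspe1 made 5 against 7.73%. Hsph1 made 5 against 4.20%, Dnajb1 made 4 against 8.32% and Hspa8 made 3 against 9.81%. Hspb1 made 0 against 0% of all genes, and 5 of 6 at an unadjusted p under 0.05, against 19.2% of all genes. Hsp90aa1 and Hspd1 had the highest r, 0.87 (rho 0.88, permutation p = 1e-05 for both, 0.83 without the 2 farthest pairs), and Hspd1 and Hspe1 followed at 0.84 (rho 0.77, permutation p = 2e-05 and 0.00034, 0.68 without the 2 farthest).

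Without tumors 9 and 20 the median r of the differences was 0.60 (range 0.23 to 0.84, all 21 positive). In that setting 6 ordered pairs were called, with 0% to 12.2% of all genes per member. The pair of tumor 5 weighed as much, with 12 called without it, and 17 were called without tumor 9 or 20 alone. Tissue and pair differences share their tumor arrays, so these counts are not independent of those in tumors.

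The genes whose values most resembled those of the 7 were taken by mean Pearson r with them. In normal liver Stip1, which encodes the adaptor that links HSP70 to HSP90, led all 22173 other genes (mean r 0.65, 0.46 to 0.82 over the 7, n = 29). Ahsa1, the activator of the HSP90 ATPase, was second at 0.63, and Cacybp, Atp5pb and Cycs followed at 0.56 to 0.55, where the median of all other genes was 0.00. In tumors the first was Hspa9, the mitochondrial HSP70 (mean r 0.75), followed by Josd1, the HSP70-interacting protein gene St13, Bmpr1a and Creg1. The tumor order was different without tumors 9 and 20, led by Tbpl1 at 0.53 and the chaperonin subunit gene Cct5 at 0.51, with Arntl, Rcc2 and Xpo1 at 0.50. For the paired differences Stip1 led again, at 0.81 over 18 pairs, and at 0.75 without tumors 9 and 20.

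Single members had closer partners. In normal liver Hsph1 was closest to Fkbp4 (r = 0.84), an HSP90 co-chaperone, and to Chordc1 (0.76), and Dnajb1 to Ahsa1 (0.81) and Dnajb2 (0.79). Hsp90aa1 was closest to Stip1 (0.82) and Cacybp (0.80). Hspd1 was closest to Cops5 (0.92), Cct4 (0.92) and Cops6 (0.91), of the COP9 signalosome and the cytosolic chaperonin. Cirbp, a cold-inducible RNA-binding protein whose RNA falls when temperature rises, had r = -0.70 with Hsph1 in normal liver (limma adjusted p = 0.0421) and -0.42 with Dnajb1 (adjusted p = 0.222). With Hsp90aa1 the r of Cirbp in normal liver was -0.13 and with Hspa8 it was 0.03, and its mean r over the measured members was -0.23. In tumors the r of Cirbp with Hsph1 was -0.39 (adjusted p = 0.0956). Its mean r over the members was -0.34 in tumors and -0.08 without tumors 9 and 20. Cirbp itself did not differ by tissue (log2 change -0.15, SE 0.097, adjusted p = 0.238).

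Other chaperone genes showed which classes shared the rise. Over 7 lists of other chaperones, co-chaperones, mitochondrial proteases and genes of the endoplasmic reticulum, 41 of 96 measured genes rose and 8 fell. That is 42.7% and 8.33%, against the 17.9% and 14.3% of all genes given above. In the pairs 21 were called higher and 5 lower, against 12.6% and 8.13% of all genes. Of 13 measured mitochondrial genes 9 rose (69.2%) and none fell, with 4 called higher in the pairs, against 12.6% of all genes. Lonp1, the protease of the mitochondrial matrix, rose 1.77-fold (adjusted p = 2.52e-05, log2 change 0.83 with SE 0.155), Dnajc15 1.52-fold and Hscb 1.23-fold, whereas Clpx was not called (-0.23, adjusted p = 0.219).

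Of 14 genes of the cytosolic chaperonin TRiC and prefoldin, which fold actin and tubulin, 10 rose and 1 fell. That is 71.4% and 7.14%, against 17.9% and 14.3% of all genes. The pairs called 5 higher and 0 lower, against 12.6% and 8.13% of all genes. Cct8 rose 1.55-fold (log2 change 0.63, SE 0.11, adjusted p = 6.97e-06), Cct4 1.47-fold and Cct5 1.31-fold. The member that fell was Cct6b, whose product is a testis form (-0.18, adjusted p = 0.00461; 0.0535 in the pairs).

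Among 22 HSP90 and HSP70 co-chaperone genes 9 rose (40.9%) and 1 fell (4.5%), against 17.9% and 14.3% of all genes. The paired test called 5 and 1, against 12.6% and 8.13% of all genes. Ppp5c (1.35-fold), Bag2 (1.40-fold), Sgta (1.40-fold), Stip1 (1.33-fold) and St13 (1.29-fold) rose, of which St13 was not called in the pairs (adjusted p = 0.15). Fkbp5, which glucocorticoids induce, fell by 0.49 on the log2 scale (adjusted p = 0.00132), with a lower value in 17 of 18 tumors of pairs. The genes closest to the members in normal liver were not all among those that rose: Ahsa1 (log2 change 0.08, adjusted p = 0.446), Fkbp4 (0.01, adjusted p = 0.937) and Chordc1 (0.07, adjusted p = 0.647) were not called.

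The HSP70 family itself was mixed. Of 9 relatives 3 rose (33.3%) and 1 fell (11.1%), against 17.9% and 14.3% of all genes. Those that rose were Hspa12b at 1.19-fold, Hspa4 at 1.18-fold and Hspa12a at 1.24-fold, and Hspa1l fell by 0.26. The pairs called 2 higher and 1 lower, against 12.6% and 8.13% of all genes. Hspa4 was not called in the pairs (adjusted p = 0.192). The Hspa12a call was lost without the block (adjusted p = 0.0675) and without the arrays against the gender label (0.0848), and its change was -0.035 in the unpaired arrays. The Hspa1l call was lost in the unpaired arrays (adjusted p = 0.0899), and with the mean of all its clusters its change was 0.035. Hspa1b, the most heat-inducible HSP70 gene together with Hspa1a, did not pass (adjusted p = 0.0687, log2 change -0.49 with SE 0.21), and in 6 of 18 pairs the tumor was the higher one. With the gender label as a covariate it passed as lower in tumors (-0.56, adjusted p = 0.0335), as it did among brighter genes (-0.49, adjusted p = 0.0487). Hspa1a, a near-identical neighbour that the array may not separate from it, had a change of 0.07 (adjusted p = 0.610).

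Of 16 other J-domain genes 8 rose (50%) and 2 fell (12.5%), against 17.9% and 14.3% of all genes. Dnajc2, Dnajb2 and Dnajc21 rose 1.31-, 1.30- and 1.30-fold. The pairs called 5 higher and 0 lower, against 12.6% and 8.13% of all genes. Dnajb2 was not called in the pairs (adjusted p = 0.204). Of 7 other small heat shock protein genes only Hspb8 rose (1.49-fold, adjusted p = 0.00528), a share of 14.3% against 17.9% of all genes, and it was not called in the pairs (adjusted p = 0.104). The listed genes of the endoplasmic reticulum, not all of which encode chaperones, did not share the direction. Of 15, 3 fell (20%, near the 14.3% of all genes), namely Herpud1 by 0.59, Hyou1 by 0.31 and Pdia6 by 0.25. Only Creld2 rose (6.67%, against 17.9% of all genes), by 1.27-fold (limma adjusted p = 0.0409). Its call was lost with quantile normalization (adjusted p = 0.0503), without the block (0.0517) and in the pairs (0.299). Hspa5, the HSP70 of that compartment, and Hsp90b1, its HSP90, were both at 0.08 (adjusted p = 0.350 and 0.263).

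Of 5 genes of other heat shock factors and Hsbp1, Hsf5 fell by 0.29 (limma adjusted p = 1.69e-04) and none rose. That is 20% lower, near the 14.3% of all genes, and 0% higher, against 17.9% of all genes. Hsf2, an HSF1 relative, was at -0.12 (adjusted p = 0.447). Of 7 other heat-inducible genes 4 rose (57.1%, against 17.9% of all genes) and 0 fell. Those that rose were Atf3 (1.64-fold), Ier5 (1.39-fold), Hikeshi (1.36-fold) and Serpinh1 (1.35-fold), and Hmox1 did not (-0.01, adjusted p = 0.959).

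**Figure D5:**
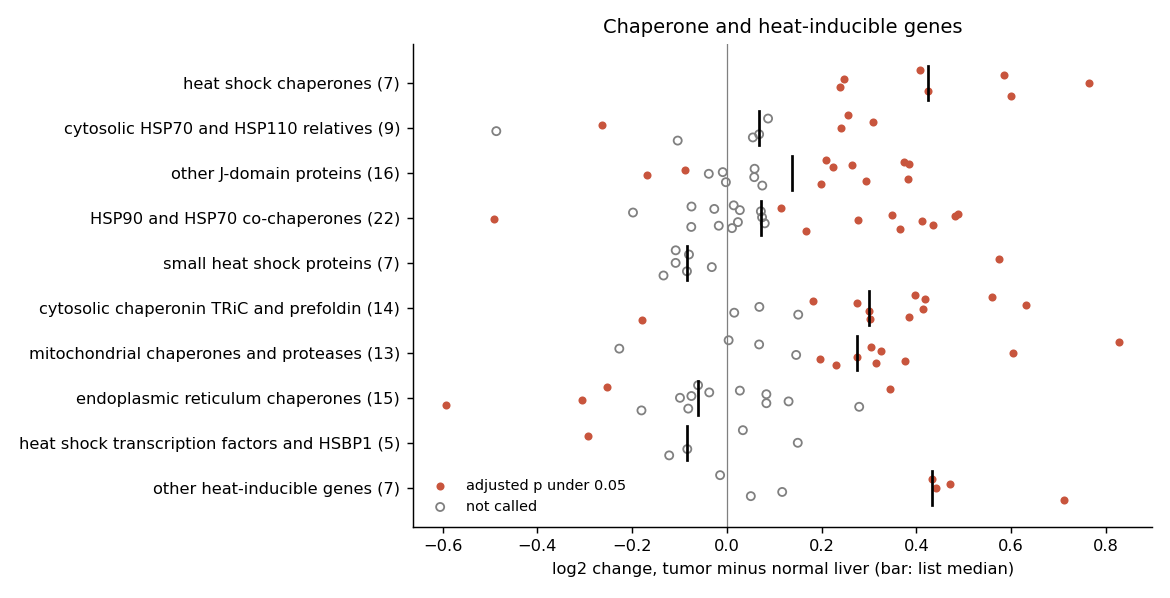
Log2 change, tumor minus normal liver (horizontal axis), of each measured gene of 10 lists (rows, with the number of genes), filled where the adjusted p was under 0.05 and open where it was not, with a black bar at the list median. The 7 heat shock chaperones are all filled and to the right of 0, as are most genes of the chaperonin and mitochondrial lists, while the endoplasmic reticulum list has its median at -0.06.

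Genes of other processes moved in the same contrast. All 15 measured proliferation genes rose, against 17.9% of all genes, from 1.09-fold for Tyms to 2.80-fold for Rrm1. In the pairs, against 12.6% of all genes called higher, 13 of these 15 were called (not Tyms or Rrm2). Their mean r with the 7 chaperone genes had a median of 0.11 in normal liver (range -0.08 to 0.41) and -0.16 in tumors (range -0.33 to 0.25), while for mitochondrial chaperones the medians were 0.35 and 0.59 and for TRiC and prefoldin 0.35 and 0.50. Those tumor medians without tumors 9 and 20 were 0.04, 0.21 and 0.33. Of 12 clock genes 2 rose (16.7%, near the 17.9% of all genes) and 5 fell (41.7%, against 14.3% of all genes). Hlf fell by 1.07 and Per3 by 0.98, and Arntl rose 1.9-fold. Mean r of the clock genes with the 7 had a median of 0.03 in normal liver, 0.21 in tumors and 0.30 for the paired differences. Without tumors 9 and 20 the tumor and difference medians were -0.13 and 0.05. Sampling times are not labelled.

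Cell type markers also differed by tissue. Of the markers 4 of 5 for Kupffer cells fell, 3 of 5 for stellate cells and fibroblasts fell and 1 rose, 2 of 4 for cholangiocytes fell, 2 of 5 for sinusoidal endothelium fell and 1 rose, and 1 of 6 for hepatocytes fell. Over all genes 14.3% were called lower and 17.9% higher, so the hepatocyte count was near the background. None of the T and NK cell, B and plasma cell or neutrophil markers was called. Mean levels of the Kupffer list ran from 8.42 to 11.05 in normal livers and 6.80 to 10.84 in tumors, and of the stellate list from 8.55 to 11.01 and 7.60 to 10.54. The part of these shifts in the chaperone values was not tested.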

How the data were processed

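The values analysed are log2 intensities per transcript cluster, as deposited. The submitters' processing notes name Affymetrix Expression Console as the software with which the authors made these log2 values. The algorithm, its version and a genome build, not given in the sources used here, were not assumed, and no raw intensities were used. Symbols came from the platform annotation: of 41345 clusters 23521 carried 1 symbol, 1814 several and 16010 none. The brightest single-symbol cluster per gene was kept, which left 22180 genes.

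Tissues were compared with limma 3.58.1 in R 4.3.3 (trended eBayes, Benjamini-Hochberg over all genes, call at 0.05), with the animal as a random block (correlation 0.145), and pairs by their 18 differences. Pairing came from titles. Paired arrays' deviations from their tissue means had a median correlation of 0.241 and were above 0.1 in 15 of 18 pairs. Nothing labelled gives a hybridization batch, and replicates were taken as separate animals except for 1 animal with 2 tumors. Some titles could be read as fewer animals, and a looser reading was an alternative. Depth does not apply to arrays, whose number limits the precision. Each fit was tested on simulated data, but no result of that test is given here. The test is not taken as evidence for the calls, those of joint variation included.

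The members and lists were chosen with earlier results of these data known. Named were all members, up to 3 genes per list of smallest adjusted p and that of largest change, and the closest genes by correlation. Other list genes named were chosen after their values were seen. Alternatives covered scaling, pairing, brightness, gender label, array weights, clusters per symbol and omitted arrays.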

Additional observations from a re-analysis of the deposited data

Results flagged for a closer look

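The slope of Hspd1, the mitochondrial HSP60 gene, on Hsph1, the HSP110 gene, was the 1 called among 42 ordered pairs in the interaction test. Of all genes 3.9% had a called slope difference on Hsph1. The fitted difference, tumor minus normal liver, was 0.51 log2 units of Hspd1 per log2 unit of Hsph1 over 58 arrays (limma adjusted p = 0.0470), with slopes of 0.13 (SE 0.122) in normal liver and 0.66 (SE 0.093) in tumors. Read the other way, as Hsph1 on Hspd1, the difference was 0.71 and did not pass (adjusted p = 0.132). The first difference was not called by limma with centred arrays (adjusted p = 0.116), among brighter genes (0.0566) or without tumor 9 (0.0876). Without tumors 9 and 20 it was 0.17 (adjusted p = 0.773).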

How the results depend on the processing

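The tumor against normal liver comparison called 7 of 7 genes in every scaling, covariate, weighting, cluster and array alternative run, and without each of the 58 arrays in turn, except among unpaired arrays (5 of 7, with Dnajb1 and Hspb1 not called) and in a fit of the 36 paired arrays with a replicate block for each animal (6 of 7, Dnajb1 at adjusted p = 0.0641). The block changed no other member's call. The fit with a replicate block repeats the test of the 18 paired differences and gave the same values, so it is not separate evidence. Scaling moved the split of all genes: 17.9% were called higher and 14.3% lower as deposited, 21.1% and 7.79% with arrays centred on their median, and 18.9% and 11.7% with quantile normalization.

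The pairs and the joint variation depended more on single arrays. Of all genes the pairs called 12.6% higher as deposited, 13% with centred arrays and 9.09% without the arrays against the gender label. Joint variation in normal liver called at most 18.1% of all genes per member as deposited and 32.8% with centred arrays. In tumors it called at most 16.3% as deposited and 30.4% with centred arrays, and for the differences 19.3% and 37.1%. Pairs called 6 of 7, 4 with centred arrays (Hspd1 and Hspb1 lost), 5 with quantile normalization (Hspb1 lost), 1 without the arrays against the gender label and 2 to 7 with each pair left out (lowest without tumor 11 or 14, 3 without tumor 2, 4, 5, 7, 10 or 13). Joint variation in normal liver had 9 ordered pairs called, 23 with centred arrays, 4 with quantile normalization and 4 to 11 without each array (4 without normal liver 15, 5 without normal liver 5). In tumors it had 30, 38 with centred arrays, 27 with quantile normalization and 28 with the gender label as a covariate. It had 0 without tumors 9 and 20 (15 at an unadjusted p under 0.05 by limma), and 12 to 33 without each animal. For the differences it had 28, 41 with centred arrays, 16 with quantile normalization and 19 with the gender label as a covariate. It had 17 without tumor 9, 6 without tumors 9 and 20, and 12 to 33 without each pair (12 without tumor 5, 17 without tumor 20). The slope difference had 0 calls by limma with centred arrays (9 at an unadjusted p under 0.05), among brighter genes (8), without tumor 9 (4) and without tumors 9 and 20 (9). In the settings of this paragraph the share of all genes at an unadjusted p under 0.05 was not computed.

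Values that changed sign were Hspa12a among unpaired arrays (-0.035, adjusted p = 0.903), Hspa1l with the mean of all its clusters (0.035, adjusted p = 0.669) and the tumor slope of Hspe1 on Hsp90aa1 without tumors 9 and 20 (-0.087, from 0.65). Unless the setting itself removes arrays or genes, the cause was not tested. Dim probes and gene copies that share probes limit single clusters.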
